A study of Rattus norvegicus with 4 samples.

Results

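Annexins are cytosolic proteins that bind acidic phospholipids when calcium rises, and 9 annexin genes (Anxa1 to Anxa8 and Anxa11) were followed here in cultured rat ovaries given anti-Müllerian hormone (AMH). The members were all probe sets, the groups of oligonucleotides that report 1 transcript, that the array annotation gives exactly 1 gene symbol and whose symbol is one of these 9. They came to 15 probe sets of 9 genes, among 14218 genes named in this way. Whole ovaries of female rat pups of postnatal day 4 were kept on floating filters, in medium with albumin, insulin and transferrin, for 10 days. Control ovaries had no treatment and AMH ovaries had 50 ng/mL AMH; the labels name no strain, genotype or source of the hormone. About 10 ovaries were pooled for each RNA sample, and 2 independent pools per group gave 1 Affymetrix array each, 4 arrays in all.

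Every annexin carries a conserved core of repeated domains that docks on membranes, and a variable N-terminal tail that chooses its partners. Through these tails annexins bind small S100 proteins, bridge membranes during secretion and wound repair, and, for Anxa1 and Anxa2, act at the cell surface. AMH is a ligand of the TGF-beta family made by granulosa cells of growing follicles, and it holds back the recruitment of primordial follicles. The series asked which ovarian transcripts change under that hold.

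At its brightest probe set, 1 of the 9 annexins was called higher with AMH (Anxa8), 3 were called lower (Anxa2, Anxa6 and Anxa7) and 5 were not called (Anxa1, Anxa3, Anxa4, Anxa5 and Anxa11). Among all 10622 tested genes 11% were called higher and 11.9% lower, so that 1 of 9 higher is near the background share and 3 of 9 lower rests on few genes. Anxa8 passed the filter on dim values only through its AMH arrays, which favours its call, and it was not called with no filter (adjusted p = 0.0701). The largest of the falls was that of Anxa7, from 756.35 ± 30.9 to 388.1 ± 27.7 intensity units (mean ± SD, n = 2 pools), and Anxa8 read 23.5 ± 5.66 in control and 86.95 ± 47.2 with AMH. A call means an adjusted p below 0.05 in limma's moderated test over all 18625 tested probe sets, and a change is the AMH mean less the control mean of log2(intensity + 16), a scale that understates changes of dim probe sets, with its standard error (SE). With 2 arrays a group, the number of arrays limits the precision of every value.

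The sequences upstream of 4 members are shown as a description: Anxa2 and Anxa7 (called lower), Anxa8 (called higher) and Anxa1 (not called, with the highest reading). Each is the 250 bases before the annotated transcript start, from RefSeq, build GRCr8, written in the direction of transcription. The table held 8 of the 9 members and not Anxa6. Capitals mark matches on either strand to 7 short motifs, spelled out after the sequences; no matches overlapped in these 4 windows.
Anxa2 (chr8:78986002-78986251, plus strand): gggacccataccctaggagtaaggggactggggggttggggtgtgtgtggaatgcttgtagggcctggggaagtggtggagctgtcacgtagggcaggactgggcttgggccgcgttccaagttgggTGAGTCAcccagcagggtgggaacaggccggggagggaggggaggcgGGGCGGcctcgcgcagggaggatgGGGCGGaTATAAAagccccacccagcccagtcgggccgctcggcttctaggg
Anxa7 (chr15:3870790-3871039, plus strand): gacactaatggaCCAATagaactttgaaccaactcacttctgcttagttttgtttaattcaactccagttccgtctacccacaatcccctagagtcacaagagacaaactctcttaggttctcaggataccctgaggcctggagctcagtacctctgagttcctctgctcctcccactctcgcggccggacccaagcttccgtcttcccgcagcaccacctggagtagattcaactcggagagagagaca
Anxa8 (chr16:9403137-9403386, plus strand): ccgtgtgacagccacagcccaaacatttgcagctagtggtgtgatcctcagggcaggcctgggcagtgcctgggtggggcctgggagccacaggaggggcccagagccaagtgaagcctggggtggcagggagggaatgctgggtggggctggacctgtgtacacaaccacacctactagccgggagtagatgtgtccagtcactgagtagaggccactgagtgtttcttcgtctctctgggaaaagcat
Anxa1 (chr1:227303733-227303982, minus strand): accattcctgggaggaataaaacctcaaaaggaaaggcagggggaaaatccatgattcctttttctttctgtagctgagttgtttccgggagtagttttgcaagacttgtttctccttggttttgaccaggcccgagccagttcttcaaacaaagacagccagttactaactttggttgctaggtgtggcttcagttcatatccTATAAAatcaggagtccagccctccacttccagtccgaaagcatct

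The Anxa2 window held a TATA box 45 to 40 bases before the start, GC boxes at 52 to 47 and 76 to 71, and the AP-1 letters at 123 to 117. Anxa1 held a TATA box alone, at 46 to 41. Anxa7 held only a CCAAT box, at 238 to 234, and Anxa8 held none of the letters searched. Of all 33469 windows of this length in the table, 12.9% held the TATA box (searched as TATAAA) and 30.5% the GC box (searched as GGGCGG). The CCAAT box, searched as CCAAT, was in 34% of windows and the AP-1 site, searched as TGANTCA, in 6.34%. The GC-rich BMP SMAD element (searched as GGCGCC) was in 8.69% of all windows and in none of the 8 annexin windows. The same held for the SMAD palindrome (searched as GTCTAGAC, 0.173% of all windows) and the E-box (searched as CACGTG, 5.59%). GC content was 67.2% for Anxa2, 60.4% for Anxa8, 50.8% for Anxa7 and 45.2% for Anxa1, against a median of 51.2% over all windows. These are matches of letters and not binding sites.

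Several facts of the arrays apply to every value that follows. For GAPDH, signal at the 3′ end over signal at the 5′ end, a ratio that grows as RNA or its labelled copy gets shorter, came to 1.17 and 1.27 in control and to 6.56 and 6.37 with AMH. The same ratio for beta-actin came to 3.17 and 4.60 in control and to 10.7 and 14.4 with AMH. Chip identifiers carried 2 run strings and 0 of them were shared by both groups, so run and treatment cannot be told apart. Correlation across tested probe sets was 0.974 between control arrays, 0.955 between AMH arrays and 0.877 to 0.902 between groups. Of 20 tested granulosa and oocyte markers 17 lay above the filter level (27.8 intensity units) on all 4 arrays, among them Foxl2, Amh, Gdf9 and Zp3. In pooled tissue, fewer cells of a type and less RNA per cell cannot be told apart. The part of RNA length and run in the annexin values was not tested.

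**Figure D1:**
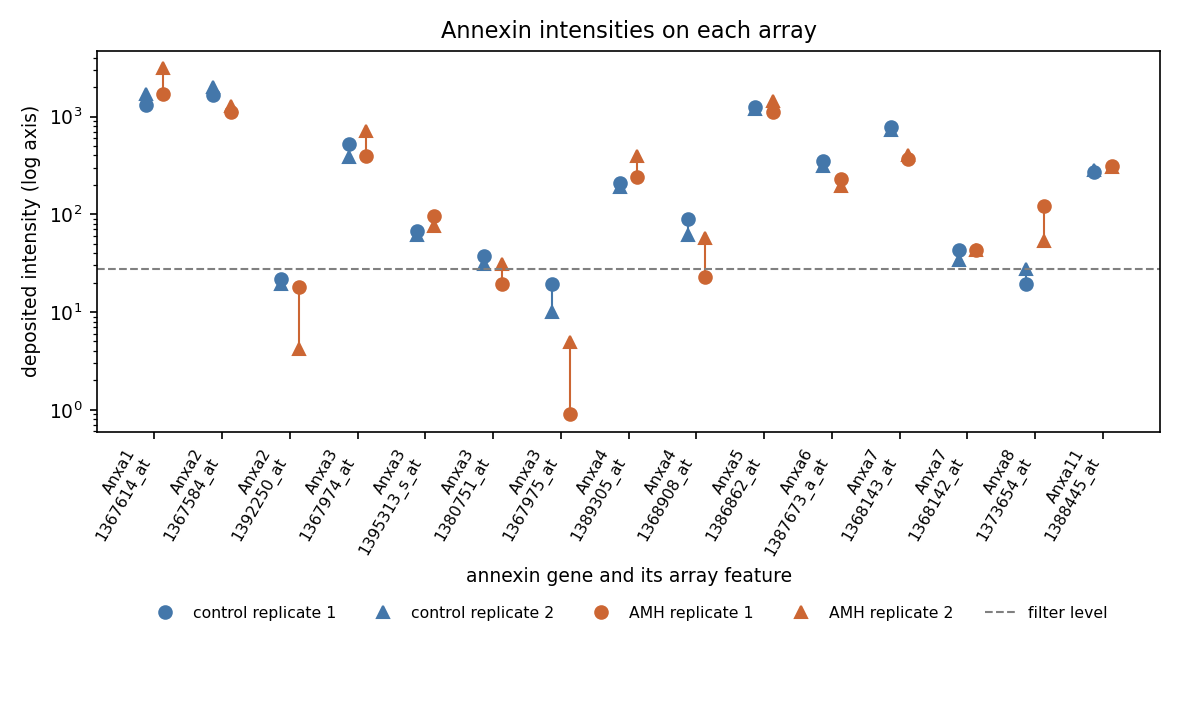
Deposited intensity (log axis) of all 15 annexin probe sets on the 2 control arrays (blue) and the 2 AMH arrays (orange), with circles for replicate 1, triangles for replicate 2, a line joining the arrays of a group and a dashed line at the filter level of 27.8. The 2 groups stand apart with little spread for Anxa7 (1368143_at), Anxa2 (1367584_at) and Anxa6, while the AMH arrays lie far from each other for Anxa1 and Anxa8.

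Of the 15 probe sets 13 passed the filter on dim values. Among them 1 was called higher (8.67% of all tested probe sets were) and 3 lower (12.8%), 4 in all against 21.5% of the tested probe sets. Groups did not overlap for 10 of the 13, with AMH higher for 5 and lower for 5, against 32.2% and 31.2% of all tested probe sets. The median change of the 13 was 0.12, beside 0.02 for all tested probe sets. The called annexins thus lay on both sides of 0.

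Anxa2 joins S100a10 in a complex that gathers plasminogen and its activator at the cell surface, and it takes part in membrane repair and secretion. Its brighter probe set (1367584_at) read 1675.4 and 1999.5 in control and 1121.3 and 1295.3 with AMH. Both AMH values lay below both control values. The fall was 0.60 on the log2 scale, with an SE of 0.16 (1.51-fold, limma adjusted p = 0.0298). The dimmer probe set (1392250_at) read 21.7 and 19.5 in control and 18 and 4.2 with AMH, all below the filter level, and was not tested. Without control replicate 1 the adjusted p for Anxa2 was 0.0944 and without control replicate 2 it was 0.269. It was 0.0842 with median centring, 0.0624 with no filter on dim probe sets and 0.0804 without an intensity trend in the variance model.

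Anxa6 has a duplicated core and helps to organise cholesterol and traffic at the plasma membrane and endosomes. Its probe set (1387673_a_at) read 349.9 and 314.7 in control and 228.7 and 194.3 with AMH. The groups again did not overlap. The fall was 0.62 with an SE of 0.17 (1.53-fold, adjusted p = 0.0384). The call ended without control replicate 1 (adjusted p = 0.281), without control replicate 2 (0.143) and without AMH replicate 2 (0.0552), with median centring (0.0671), with no filter (0.0573) and without an intensity trend (0.0682).

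Anxa7, also called synexin, promotes calcium-driven contact of secretory granules and binds sorcin and the calcium sensor encoded by Pdcd6. Its brighter probe set (1368143_at) read 778.2 and 734.5 in control and 368.5 and 407.7 with AMH. Arrays of a group differed by at most 1.11-fold, and the groups by 1.91-fold. The fall was 0.94 with an SE of 0.15 (adjusted p = 0.00523), and it was called in 12 of 13 alternatives run on the probe set itself, but not without control replicate 1 (0.0502). The dimmer probe set (1368142_at) did not fall with it: it read 43 and 34.3 in control and 43 and 43.4 with AMH (0.12 ± 0.24, adjusted p = 0.762). The call was also lost in the mean over both probe sets (-0.41, adjusted p = 0.112).

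Anxa8 is an annexin of epithelia that binds late endosomes and can act as an anticoagulant. Its single probe set (1373654_at) read 19.5 and 27.5 in control and 120.3 and 53.6 with AMH. The AMH values were higher than both control values but differed 2.24-fold from each other. Both control values lay below the filter level, where a reading cannot be told from background, so the size of the rise is not settled and no fold is given. The fitted difference was 1.31 ± 0.34 (adjusted p = 0.0286) with the constant of 16, 1.75 with a constant of 1 and 0.75 with a constant of 64. Without AMH replicate 1 it was 0.82 (adjusted p = 0.0663), without AMH replicate 2 it was 1.79 (0.00174) and without control replicate 1 it was 1.16 (0.0944). With the lowest 60 percent left out it was not tested.

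**Figure D2:**
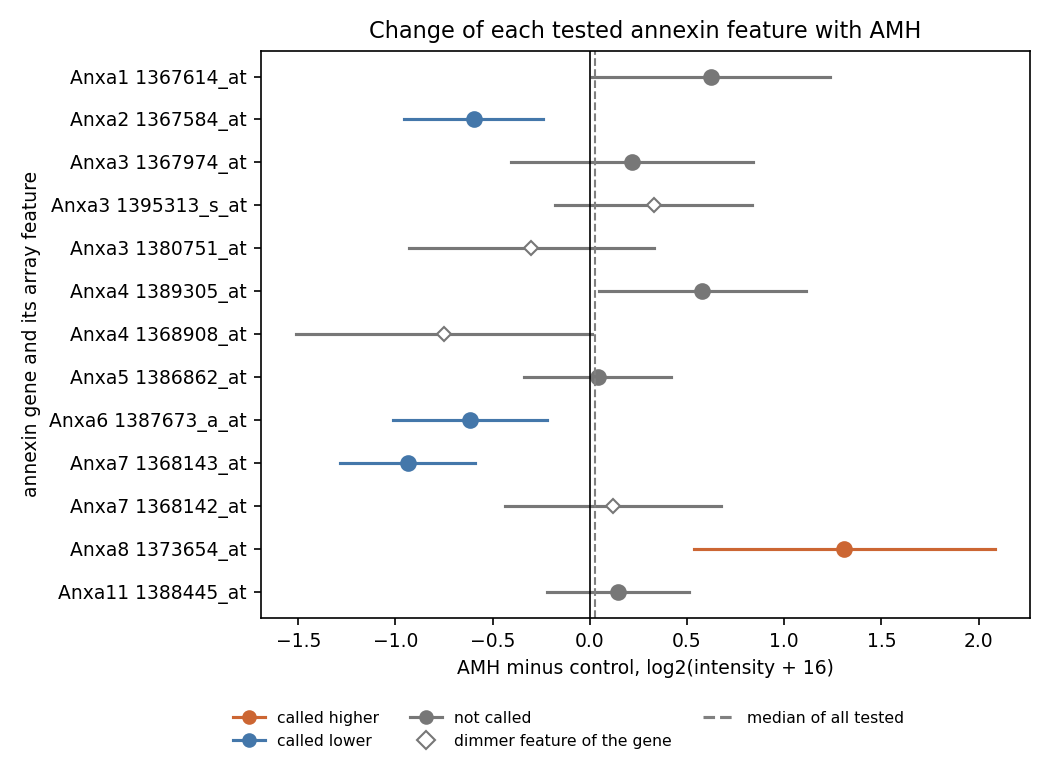
Change of each of the 13 tested annexin probe sets (AMH minus control, log2(intensity + 16)) with its 95% interval from the limma fit; filled circles are the brightest probe set of a gene, open diamonds its dimmer ones, and the dashed line is the median of all tested probe sets (0.02). Intervals of Anxa2, Anxa6 and Anxa7 (1368143_at) lie wholly below 0, and those of Anxa8, Anxa1 and Anxa4 (1389305_at) wholly above. The intervals are not adjusted for the number of probe sets, and Anxa1 and Anxa4 were not called. The probe sets of Anxa4 point in opposite directions.

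Anxa1, an anti-inflammatory annexin induced by glucocorticoids that restrains phospholipase A2, was not called. It read 1315.4 and 1688.5 in control and 1696.8 and 3132.8 with AMH. The lower AMH array thus lay just above the higher control array. Its change was 0.62 ± 0.27 (95% interval 0.01 to 1.24, adjusted p = 0.132). It came to 0.19 without AMH replicate 2 (0.409) and to 1.06 without AMH replicate 1, where it passed (0.00153).

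Anxa4, which self-assembles on membranes of secretory epithelia, gave values of opposite sign at its 2 probe sets. The brighter one (1389305_at) read 210.6 and 192.2 in control and 241.8 and 392.8 with AMH (0.58 ± 0.23, adjusted p = 0.111), and it passed without AMH replicate 1 (0.91, 0.00597). The dimmer one (1368908_at) read 88.6 and 61.1 in control and 23 and 57.1 with AMH (-0.75 ± 0.33, adjusted p = 0.142). It was -1.20 without AMH replicate 2, where the remaining AMH value of 23 lay below the filter level. Neither was called with all 4 arrays, and groups did not overlap at either. The mean over both was -0.09 (adjusted p = 0.853).

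Anxa3, abundant in neutrophils and in some endothelial and epithelial cells, had 4 probe sets. The brightest (1367974_at) read 526.8 and 388.8 in control and 392.8 and 710.1 with AMH, and the groups overlapped (0.22 ± 0.27, adjusted p = 0.606). It was 0.63 without AMH replicate 1 (0.036) and -0.20 without AMH replicate 2 (0.485), so its sign turned with the AMH array used. Of the dimmer ones, 1395313_s_at gave 0.33 ± 0.22 (adjusted p = 0.32) and 1380751_at gave -0.30 ± 0.28 (0.471). The remaining one (1367975_at) read 19.2 and 10.1 in control and 0.9 and 4.9 with AMH, below the filter level on every array.

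Neither Anxa5 nor Anxa11 was called. Anxa5, which binds phosphatidylserine exposed on dying cells, read 1260.1 and 1198.4 in control and 1109.2 and 1441.4 with AMH. The AMH values spanned the control values (0.04 ± 0.16, 95% interval -0.34 to 0.42, adjusted p = 0.886). Anxa11, whose long tail binds S100a6 and the Pdcd6 protein, read 273.1 and 281.5 in control and 312.8 and 304.3 with AMH. Its groups did not overlap, but the change was small (0.15 ± 0.16, 95% interval -0.22 to 0.51, adjusted p = 0.547). Changes within these intervals are not excluded by the 4 arrays.

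**Figure D3:**
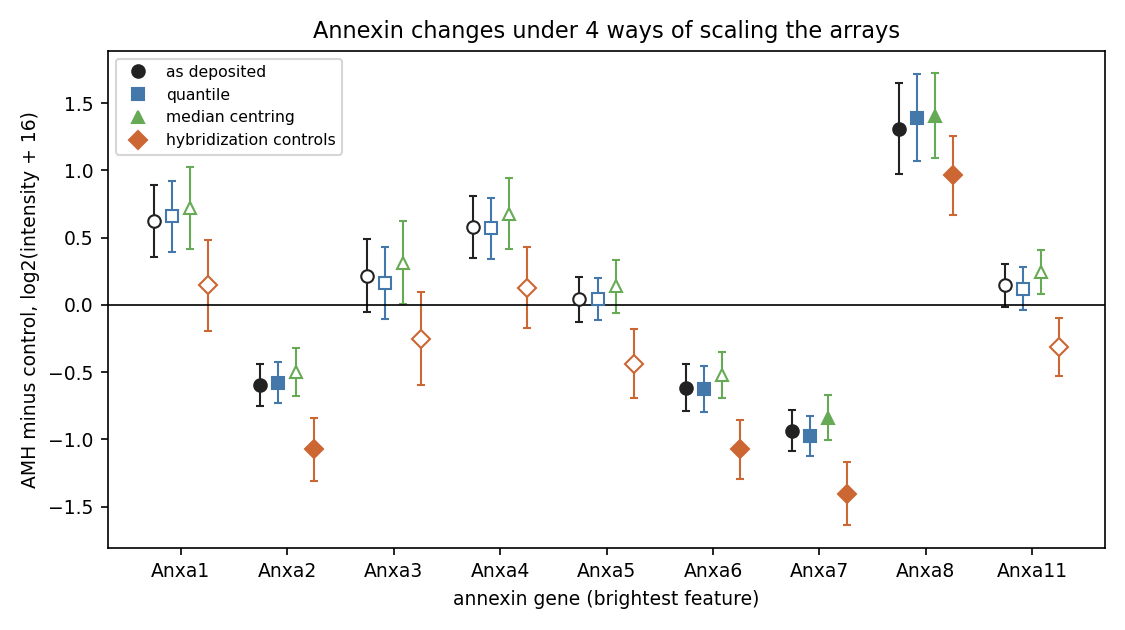
Change of the brightest probe set of each annexin (log2(intensity + 16), AMH minus control, with SE bars) under 4 ways of putting the arrays on a common scale; filled symbols were called. Anxa2, Anxa6 and Anxa7 lie below 0 and Anxa8 above 0 under all 4, whereas Anxa3, Anxa5 and Anxa11 lie below 0 only with hybridization control scaling.

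Relative to the deposited scale, median centring moved the annexins up together and hybridization control scaling moved them down together. Quantile normalization moved some up and others down. The deposited values gave 59.6% of the called probe sets as lower, median centring 47.9% and scaling to the hybridization controls 97.1%. The hybridization controls are transcripts spiked into the labelled sample, and their geometric mean was 947.6 and 1044.5 in control and 1530 and 1266 with AMH. The median change of all tested probe sets was -0.39 on their scale and 0.12 with median centring. Anxa7 was -0.84 with median centring and -1.41 with hybridization control scaling, and Anxa8 1.41 and 0.96, called each time. Anxa2 was -1.08 (adjusted p = 0.00854) and Anxa6 -1.07 (0.00633) with hybridization control scaling. There Anxa3 (-0.25), Anxa5 (-0.44) and Anxa11 (-0.31) turned negative and were not called, and the dimmer probe set of Anxa4 was called lower (-1.10, 0.0437).

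A ratio of 2 annexins on the same array does not depend on a factor that scales the whole array. It was taken for all 36 pairs of the 9 genes at their brightest probe sets, on plain log2 intensity. In 28 pairs (77.8%) the ratio moved in one direction in all 4 combinations of an AMH with a control array, beside 62.6% of all pairs of tested genes, and in 21 of the 28 pairs without Anxa8. Anxa1 gained on Anxa2 by 1.23 (2.35-fold, 0.84 to 1.62 over the 4 combinations) and Anxa5 on Anxa7 by 1.01 (0.88 to 1.13). Anxa2, Anxa6 and Anxa7 lost ground to each of the other 6 annexins in all 18 such pairs, by 0.64 to 1.59 in the 15 pairs without Anxa8. The choice of these 3 by their lower calls fixes the mean direction, since the changes of the other 6 were all positive. Pairs with Anxa8 have no settled size, since its control readings lie below the filter level. Among themselves the 3 differed by at most 0.36. These ratios show unequal change and carry no test.

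Annexins work with binding partners, and 3 S100 genes among them fell. Of 11 binding partners on the list 10 were measured, and 2 were called higher, 3 lower and 5 not called (median change -0.25). The shares to set beside these and the later list counts are 11% higher and 11.9% lower of all tested genes, and lists of this size rest on few genes. S100a11, the partner of Anxa1, read 1966.5 and 1961.3 in control and 251.8 and 378.3 with AMH (-2.61 ± 0.20, adjusted p = 0.000307). S100a10, the partner of Anxa2, read 1727.7 and 1684 in control and 512.6 and 698.8 with AMH (-1.49 ± 0.17, adjusted p = 0.00142). S100a6, which binds Anxa11, fell by 1.21 with an SE of 0.16 (adjusted p = 0.00231). These 3 falls were called in all 13 alternatives run on the probe set.

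Among the other binding partners, the phospholipid scramblase gene Plscr1 read 107.4 and 158.9 in control and 242.2 and 306.2 with AMH (0.97 ± 0.22, adjusted p = 0.019). Its call ended without control replicate 1 (0.151) and with hybridization control scaling (0.166). S100a4 gave 0.58 ± 0.17 (adjusted p = 0.0434), a call lost in 7 of 13 alternatives, among them the fits without control replicate 1 (0.378) and without control replicate 2 (0.0891). Pdcd6, the calcium sensor that binds Anxa7 and Anxa11, read 4413.7 and 4194.6 in control and 3404.4 and 3619 with AMH and was not called (-0.29 ± 0.13, adjusted p = 0.147), although its groups did not overlap. The sorcin gene Sri (0.53 ± 0.20, adjusted p = 0.0876) was not called either, though a dimmer probe set of Sri was called lower (-1.07, 0.00871).

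The plasminogen system that Anxa2 serves, with receptors of annexin ligands, held 6 tested genes, of which 2 were called higher, 0 lower and 4 not (median 0.54); at an unadjusted limma p below 0.05, 2 were higher and 0 lower. Plat, the tissue plasminogen activator, read 777.7 and 722.9 in control and 1181.2 and 1060.9 with AMH (0.57 ± 0.15, adjusted p = 0.0282). The plasminogen receptor gene Plgrkt read 108.2 and 93 in control and 165.3 and 259.7 with AMH (0.94 ± 0.24, adjusted p = 0.026). For Plat the adjusted p was 0.157 without control replicate 1 and 0.223 without control replicate 2. For Plgrkt it was 0.0609, 0.106 and, without AMH replicate 2, 0.0529. Neither was called with hybridization control scaling (0.792 and 0.233). Tfpi (0.37 ± 0.20, adjusted p = 0.229) and F3 (0.14 ± 0.22, 0.688), an inhibitor and the starter of coagulation, were not called, and Plaur and Plg lay below the filter. The formyl peptide receptor genes Fpr1, Fpr2 and Fpr3 had no probe set listed.

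Phospholipase A2 and eicosanoid enzymes, the arm that Anxa1 restrains, had 7 tested genes, read at their brightest probe sets. Of these 2 were called higher, 0 lower and 5 not called (median 0.36). At an unadjusted limma p below 0.05, 3 were higher and 0 lower. Pla2g4a, the cytosolic phospholipase A2, read 260.3 and 288.1 in control and 591.8 and 503 with AMH (0.95 ± 0.17, adjusted p = 0.00674). It missed the threshold without control replicate 1 (0.0561) and with hybridization control scaling (0.114). Ptgs2, the inducible prostaglandin synthase, gave 2.26 ± 0.39 (adjusted p = 0.00664, and 1.61 without AMH replicate 1). The secreted phospholipase gene Pla2g2a read 1514.6 and 1007.2 in control and 764.7 and 1455.4 with AMH (-0.22 ± 0.30, adjusted p = 0.631). Pla2g5 (-0.11 ± 0.18, adjusted p = 0.714) was not called. The dimmer probe set of Ptges gave -0.90 ± 0.29 (adjusted p = 0.0593) and was not called. Those of Pla2g6 gave 0.52 ± 0.22 (0.137) and 0.23 ± 0.21 (0.472). Alox5 and Alox5ap did not pass the filter on dim values and were not tested. Alox5ap read 33.2 and 34.9 in control and 10.5 and 11.2 with AMH. Alox5 read 12.1 and 11.6 in control and 1.7 and 4.3 with AMH.

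Membrane repair and calcium-driven fusion gave 2 genes called higher, 1 lower and 9 not called among 12 tested (median 0.22). Dysf, which encodes the repair protein dysferlin, read 50.8 and 55.9 in control and 119.5 and 111.2 with AMH (0.92 ± 0.21, adjusted p = 0.017). Esyt2, an extended synaptotagmin at contacts of the endoplasmic reticulum with the plasma membrane, gave 0.71 ± 0.17 (adjusted p = 0.0239). Capns1, the small subunit shared by the classical calpains, read 614 and 578.3 in control and 340.5 and 363.3 with AMH (-0.73 ± 0.15, adjusted p = 0.0127). All 3 calls ended without control replicate 1 (0.121, 0.229 and 0.133) and without control replicate 2 (0.0697, 0.0606 and 0.076), and the rises also with hybridization control scaling (0.116 and 0.423). Capn2 (0.68 ± 0.21, adjusted p = 0.0517) and Cav1 (0.67 ± 0.33, 0.181) were not called, while a dimmer probe set of Cav1 was called lower (-1.91, 0.0122). Vps4a, an ATPase of the ESCRT machinery, gave 0.08 ± 0.18 (adjusted p = 0.79), and a dimmer probe set of it was called lower (-0.997, 0.0303).

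**Figure D4:**
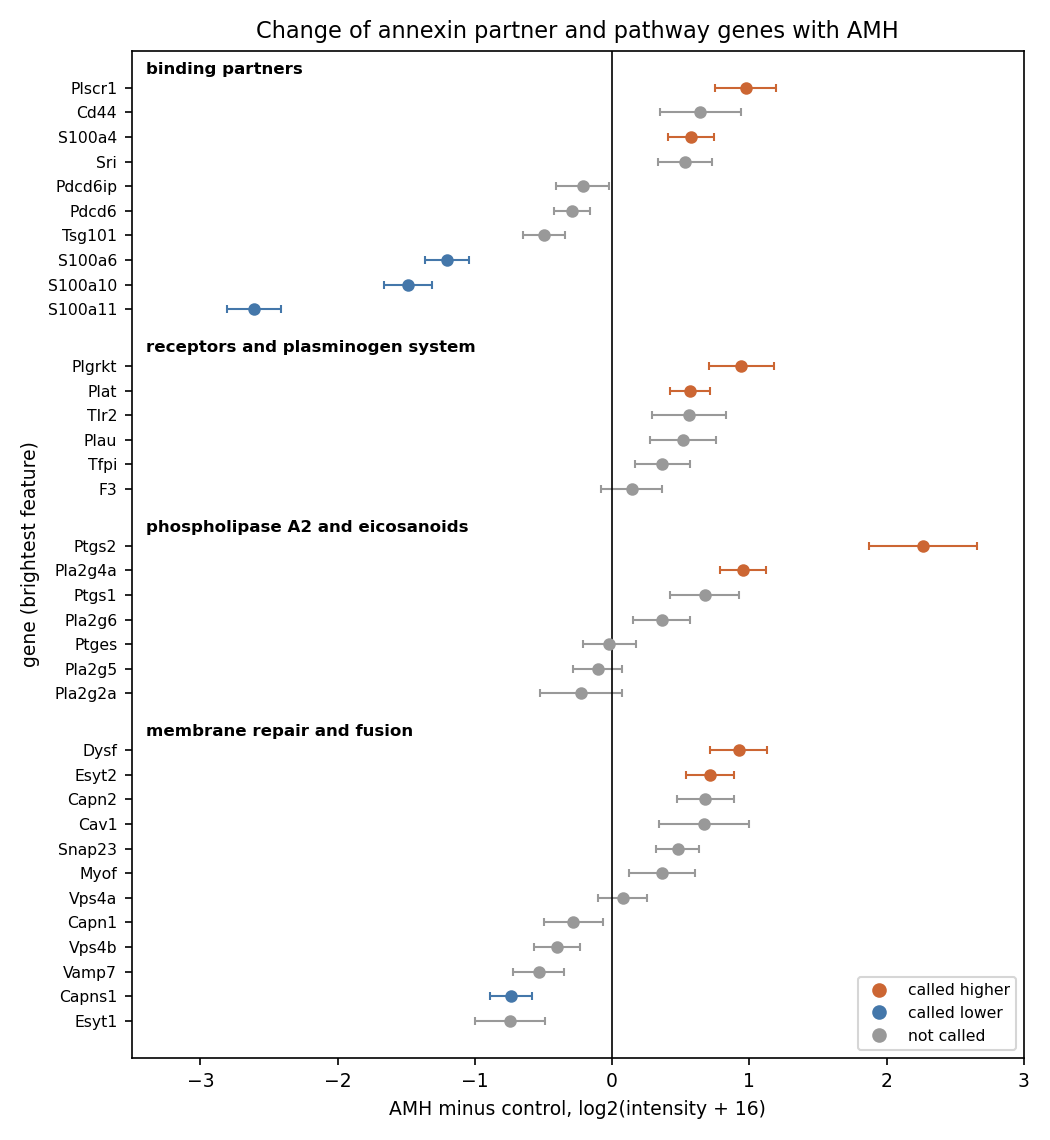
Change (AMH minus control, log2(intensity + 16)) of the 35 tested partner and pathway genes at their brightest probe sets, by list, with SE bars; orange marks genes called higher, blue genes called lower and grey genes not called. S100a11, S100a10 and S100a6 lie furthest below 0 and Ptgs2 furthest above.

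Over the 4 lists together, 8 of 35 tested genes were called higher and 4 lower, beside 11% and 11.9% of all tested genes; with hybridization control scaling 1 was higher and 10 lower. Without control replicate 1 the counts were 1 and 3, without control replicate 2 they were 3 and 3, without AMH replicate 1 they were 16 and 5, and without AMH replicate 2 they were 7 and 9, so the balance of higher and lower turned with the array left out.

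Markers of other cell types were read on the same arrays, since several annexins are abundant outside the follicle. Of 13 tested macrophage and leukocyte markers 1 was called higher (Cd68) and 1 lower (C1qb). Their summed intensity was 1724 to 1954 in control and 1221 and 3102 with AMH, and Itgam and Cd163 were below the filter. It was higher on AMH replicate 2, as were 9 of the 13 tested annexin probe sets (Anxa1 and Anxa4, but also Anxa2 and Anxa7). The share of all tested probe sets brighter on that array was not taken. Sums of the surface epithelium, endothelial, smooth muscle, oocyte and theca markers were also higher there than on AMH replicate 1. Those of granulosa and red blood cell markers were lower there. Of 9 tested surface epithelium and mesothelium markers 1 was higher (Upk1b, 71.6 and 149 to 376.6 and 290.4) and 2 lower (Cdh1 and Epcam), with sums of 4027 to 4493 in control and 2385 to 3888 with AMH. Endothelial markers gave 0 called of 8 by limma, and 0 at an unadjusted p below 0.05 (sums 1123 to 1166 and 1115 to 1304), and smooth muscle and pericyte markers 2 lower of 8 (682 to 718 and 488 to 644). Oocyte markers gave 5 lower of 8 (9788 to 10450 and 7375 to 7744) and granulosa markers 3 higher and 1 lower of 12 (4110 to 4922 and 5949 to 8400). Theca and stroma markers gave 1 higher and 1 lower of 8 (10209 to 11048 and 8590 to 9927), and red blood cell markers 1 lower of 2 (1240 to 1438 and 88.2 to 115). The part of these cells in the annexin values was not tested.

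The genes most like an annexin over the 4 arrays were named by the distance between log2 profiles, each centred on its own mean. Genes whose symbols begin with LOC or RGD were left out of this search. Nearest to Anxa7, the annexin with the largest moderated statistic, were Irf1 (distance 0.04), Atp5pb (0.04) and Exosc1 (0.04), which changed by -0.95, -0.92 and -0.92. Nearest to Anxa1, taken because its probe set had the highest reading, which depends on the probes as well as the transcript, were Tasp1 (0.06), Thy1 (0.06) and Sox17 (0.08), whose highest value was likewise on AMH replicate 2. Thy1 passed the filter on dim values only through its AMH arrays (mean log2 5.43 in control and 6.10 with AMH). With 4 arrays many genes share such a profile, and the likeness is a description.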

How the data were processed

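The series holds 4 one-colour Affymetrix arrays of pooled rat ovaries, 2 per group; the titles give each array its group and number. The authors deposited linear intensities for 31099 probe sets; summarising software: not given in the sources used here. After trimming 2 percent at each end, every array's mean was 125.03, so the deposited intensities carry a per-array scaling.

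From the deposited intensities log2(intensity + 16) was computed. The 57 control probe sets and the lowest 40 percent by mean log2 (below 5.45) were left out, leaving 18625, and limma 3.58.1 in R 4.3.3 (lmFit, eBayes with an intensity trend, 2 residual and 6.33 prior degrees of freedom) compared the groups, two-sided, with Benjamini-Hochberg adjustment over all tested probe sets. The fit was tested on simulated data, which held no effect of run or RNA length. A gene was read at its tested probe set of highest mean over all arrays. The pools are described as independent. Each p-value thus sets the group difference against the spread between pools of a group, moderated over the tested probe sets. No run string was shared by both groups, so a difference between runs is not part of that spread.

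Gene names come from the platform annotation (1 symbol for 20832 probe sets, several for 436, none listed for 9831); all 15 annexin probe sets matched a RefSeq gene by Entrez identifier. No level of one gene was compared with that of another, except that the highest reading chose Anxa1 for the profile search and among the sequences. The members and gene lists were chosen with earlier results of these data known. All annexins are named. From each partner list the rule takes the genes called and the 2 brightest not called. Plaur, Plg, Alox5, Alox5ap and the Fpr genes were added after their values were seen. So were the dimmer probe sets of Sri, Cav1 and Vps4a called lower, and those of Ptges and Pla2g6. Alternatives were the constants 1 and 64, no filter or 60 percent left out, quantile, median and hybridization control (9 probe sets) scaling, no variance trend, a replicate block, each array left out, and the mean over probe sets.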

Additional observations from a re-analysis of the deposited data

How the results depend on the processing

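Of the annexin calls, that of Anxa7 was kept in 12 of 13 alternatives run on the probe set itself and lost in the mean over its probe sets (-0.41), that of Anxa8 in 9 of 12, that of Anxa2 in 8 of 13 and that of Anxa6 in 7 of 13. The number of annexin probe sets called (4) was 1 with no filter, 2 with median centring and 2 without a variance trend, and 0 to 6 when 1 array was left out; the 0 came from limma without control replicate 1, where 3 passed an unadjusted p below 0.05 (1 higher, 2 lower). The number called was 3 with the lowest 60 percent left out (0 higher, 3 lower) and 5 with hybridization control scaling (1 higher, 4 lower). The constant, quantile normalization and the replicate block left it at 4. The replicate numbers do not pair the pools: deviations of same-numbered arrays correlated at -0.0008 across probe sets, and with the number as a block (1 residual degree of freedom) 3566 probe sets were called instead of 3999. The count over all probe sets ran from 1381 to 5131 with 1 array left out, and it was lower without a control array. The partner and pathway count (12) ran from 4 to 21. In such fits the remaining array is assumed to vary like the other group. The SD of the log2 difference between arrays was 0.318 in control and 0.435 with AMH. The median change of the annexin probe sets (0.12) turned to -0.31 with hybridization control scaling, and it ran from -0.15 to 0.13 with 1 array left out. Signs also turned with hybridization control scaling for Anxa3 (-0.25, and -0.072 at 1395313_s_at), Anxa5 (-0.44), Anxa11 (-0.31) and the dimmer probe set of Anxa7 (-0.23), without AMH replicate 2 for Anxa3 (-0.20; 0.63 without AMH replicate 1) and Anxa5 (-0.15; 0.23 without AMH replicate 1), and in the mean over probe sets for Anxa4 (-0.085); the cause was not tested. The deposited table holds no detection calls, so readings near the filter level of 27.8 cannot be told from background. Among these are Anxa8 in control, the dimmer probe set of Anxa2, and 1380751_at and 1367975_at of Anxa3. The dimmer probe set of Anxa4 on AMH replicate 1 is another.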

Other observations

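Anxa9, an annexin gene outside the members, had 2 probe sets, both below the filter level of 27.8 on every array and not tested. One (1381223_at) read 12.8 and 11.2 in control and 24.3 and 11.5 with AMH, and the other (1395466_at) read 8.9 and 11.5 in control and 20.9 and 17.7 with AMH. Anxa10 and Anxa13 had no probe set listed under those symbols.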
